A study of Mus musculus with 9 samples.

Results

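Oligodendrocyte progenitor cells (OPCs) of the mouse brain were examined within glioblastoma (GBM) xenografts. A cell counted as an OPC when it held transcripts of at least 3 of 9 genes (*Pdgfra*, *Olig1*, *Cspg4*, *Cspg5*, *Vcan*, *Cacng4*, *Neu4*, *Gpr17* and *Pllp*) and of at most 1 of 4 genes of other cell types (*Csf1r* of myeloid cells, *Cldn5* of endothelial cells, *Rgs5* of pericytes and *Aqp4* of astrocytes). Of 15391 cells kept in 9 samples, 859 met this rule, and 850 of them came from 6 patient-derived orthotopic xenografts (PDOXs) that held at least 10 each. These 850 cells are described here. The cells were chosen by their own UMIs of these 13 genes, so the levels of those genes are given as a description and were not tested.

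OPCs are dividing glial cells that tile gray and white matter and give rise to the oligodendrocytes that wrap axons in myelin. Platelet-derived growth factor acting on the receptor encoded by *Pdgfra* keeps them proliferating, the transcription factors *Olig2* and *Sox10* set their fate, and a passing stage marked by *Gpr17* precedes the myelin-forming cell. They receive synapses from neurons through glutamate receptors, respond to injury, and are one of the candidate cells of origin of glioma.

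All xenografts were grown from GBM organoids implanted into the brain of athymic nude mice, which lack mature T cells. Tumor cells are human. The cells counted here are those deposited as mouse cells, which the authors separated from human cells by mapping reads to both genomes. No further check for human cells was made. The samples were 7 untreated PDOXs (P3, P8, P13, T16, T101, T192 and T233), 1 P3 PDOX from a mouse given temozolomide (P3TMZ) and 1 nude mouse brain without tumor (Nu-NB). The labels do not give the number of mice behind each sample. The mice were female and their age is not given. T192 and T233 were models of the same patient, and P8 and Nu-NB were purified by FACS where the others were purified by MACS after myelin removal. Cells were profiled by Drop-seq, in which barcoded beads capture single cells in droplets and transcripts are counted as unique molecular identifiers (UMIs). Levels are given in CPM, the UMIs of a gene scaled by all UMIs of its class in a sample to one common total. The P8 and Nu-NB files use an older release of gene symbols, which cannot be told apart from the FACS sort.

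The files held between 1294068 and 8410580 UMIs, and between 760 and 2916 cells per sample passed the filter (200 or more genes detected, mitochondrial UMIs not above 30%). The median OPC held between 853 and 1238.5 UMIs in the 6 PDOXs, and the class as a whole between 50417 UMIs in T101 and 823115 UMIs in P8. Of the 850 OPCs, 61.2% came from P8 and 83.1% from P8 and T16 together, so the PDOX and not the cell was taken as the replicate. Kept cells of different samples shared 20 barcodes over 10 of 36 pairs of samples, and 0 barcodes were OPCs in both samples of a pair.

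The share of OPCs differed widely between tumors. P8 held 520 OPCs among 2447 kept cells, which is 21.3% with a 95% exact binomial interval of 19.6 to 22.9%. T16 followed with 8.75% (7.58 to 10.03%; 186 cells). In T233, T101 and T192, OPCs were 3.49% (2.43 to 4.84%), 3.17% (2.36 to 4.16%) and 1.78% (1.24 to 2.49%), and in P13 they were 0.892% (0.583 to 1.304%). The intervals of P8 and T16 lay apart from each other and from those of all other samples, and those of T233, T101 and T192 overlapped one another, as did those of P13 and T192, of P13 with Nu-NB and P3TMZ, and of Nu-NB, P3 and P3TMZ with one another. P3 had 0 OPCs among 818 cells, where the upper bound of the exact interval was 0.450% and 3 cells would be 0.367%. Its file does not list *Cacng4*, *Neu4* and *Gpr17* of the rule. P3TMZ had 1 OPC among 760 cells. Nu-NB had 8 OPCs, or 0.428%, too few for a comparison of expression with the tumors. All intervals cover counting error only.

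**Figure D1:**
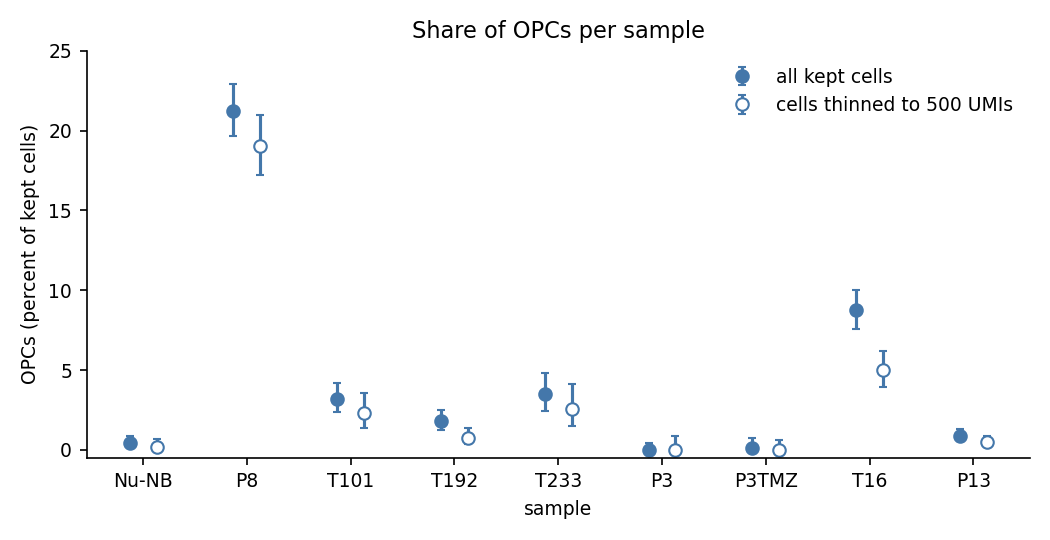
OPCs as a percentage of the kept cells of each sample, for all kept cells (filled) and for cells thinned to 500 UMIs (open), with 95% exact binomial intervals. P8 stands highest at 21.3% and 19.0%, T16 is next at 8.75% and 4.98%, and Nu-NB, P3, P3TMZ and P13 lie below 1%.

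Because deeper cells pass a rule of 3 genes more easily, the share was also counted with each cell thinned to 500 UMIs, leaving out shallower cells. It was then 19.0% in P8, 4.98% in T16, 2.57% in T233, 2.28% in T101, 0.738% in T192 and 0.522% in P13, so P8 and T16 remained the highest. The median over the 7 untreated PDOXs was 3.17% without and 2.28% with thinning, and 1.54% when OPCs holding myeloid markers, described below, were not counted. Over all alternatives it lay between 1.52% (at least 4 of the 9 genes) and 5.95% (at least 2 of the 9 genes). P8 was the only PDOX sorted by FACS, and the part of the sort in its share cannot be told apart from the tumor.

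Cells just inside and just outside the rule differed in depth and in lineage genes that the rule did not use. The 226 OPCs with exactly 3 of the 9 genes had a median of 646 UMIs, and 15.5% of them held a UMI of *Olig2*. Among the 458 cells with 2 of the genes, the median was 825 UMIs and 8.08% held *Olig2*. *Olig2* was found in 42.9% of OPCs with 5 genes (median of 1112.5 UMIs), in 58.1% of those with 8 (3003 UMIs) and in 0.779% of the 7446 cells with none, which had a median of 699 UMIs. For *Sox10*, the shares were 10.6% at 3 genes, 4.37% at 2 genes and 0.215% at none. Above 3 genes the depth went up along with the share of *Olig2*, and its part in that share was not tested.

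Of the genes used by the rule, *Cspg5*, a chondroitin sulfate proteoglycan, was detected in 82.2% of OPCs in the median PDOX (range 76.9 to 91.2%), *Olig1* in 71.8% (57.0 to 75.8%), *Cacng4*, a subunit that regulates AMPA receptors, in 69.1% (41.2 to 84.2%) and *Pdgfra* in 59.8% (38.2 to 82.1%). *Vcan*, which encodes versican, was found in 51.4%, *Cspg4*, which encodes NG2, in 45.4% and *Pllp*, a membrane protein of the myelin lineage, in 35.0% of OPCs in the median PDOX. *Gpr17* and *Neu4*, a sialidase, were rarer, at 15.8 and 15.3%. *Pdgfra* (chr5:75151322-75198206 in GRCm38) reached 206, 735 and 1814 CPM in the lowest, median and highest PDOX, against at most 18.0 CPM in astrocytes, and *Olig1* (chr16:91269769-91271939) 273, 666 and 1283 CPM. With all OPCs, levels of both were lowest in T192 and T233 and highest in P8. Without the OPCs holding myeloid markers, described below, *Olig1* was highest in T233 (2559 CPM) and T192 (1821 CPM) against 1374 CPM in P8, and *Pdgfra* was at 1181 CPM in T233, second to P8, and at 390 CPM (3 UMIs) in T192, again the lowest. *Lhfpl3*, a gene of OPCs that the rule did not use, was found in 38.5 to 70.6% of OPCs in the 5 PDOXs whose files list it, with a median of 47.1%.

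The summed level of 7 endothelial markers ranged from 71.7 to 802 CPM in OPCs and from 1488 to 4574 CPM in cells with none of the 9 genes. The neuronal markers, of which 5 to 9 are listed in a file, summed to 11.4 to 210 CPM, with 3 to 5 of the listed ones at 0, and to 8.18 to 155 CPM in cells with none of the 9 genes, and the 6 ependymal markers to 0 to 124 CPM. The 9 markers that defined astrocytes summed to 330 to 4905 CPM in OPCs and 1096 to 6381 CPM in cells with none of the 9 genes of the rule. OPCs lay above those cells in T16 (3132 against 3032 CPM) and P13 (4905 against 3355 CPM) and below them in P8, T101, T192 and T233. Astrocytes, which were chosen by these markers, held 4881 to 21891 CPM. At least 2 of the markers were found in 26.0 to 57.7% of OPCs. Fibroblast markers summed to 25.5 to 617 CPM in OPCs and 119 to 568 CPM in cells with none of the 9 genes. Mural markers stood out in P13, where 8 of 26 OPCs held a UMI of *Rgs5* and the list summed to 5382 CPM, against 35.5 to 575 CPM in the other 5 PDOXs.

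Myeloid markers were abundant in OPCs. The 10 markers, among them *Csf1r*, *C1qa*, *C1qb*, *C1qc*, *Ctss*, *Cx3cr1*, *Tyrobp*, *Lyz2* and *P2ry12*, summed to 2348 to 30123 CPM in OPCs with none of them at 0, a range that overlaps that of astrocytes (3536 to 27221 CPM) and of cells with none of the 9 genes (6224 to 27560 CPM). UMIs of at least 2 of these markers were present in 197 of 850 OPCs (23.2%), which held 46.7% of the UMIs of the class. The share of such cells was 14.6% in P8, 23.1% in P13, 26.0% in T101, 32.8% in T16, 55.9% in T233 and 64.7% in T192. In T192 and T233 they carried 94.5 and 94.2% of the UMIs, and most of these came from a few very deep cells, since 5 cells of T192 and 6 of T233 with at least 10000 UMIs held 69.0 and 76.9%. The cells with myeloid markers had a median of 2029 UMIs, against 952 UMIs in the other 653 OPCs. Pooled, they held a mean of 4.81 of the 9 genes against 4.74, while *Olig2* was at 174 against 390 CPM and *C1qa* at 1466 against 23.3 CPM. Within PDOXs, their mean number of the 9 genes was above that of the other OPCs in 4 of 6, with 5.55 against 5.04 in P8 and 3.54 against 4.16 in T101. *Olig2* was below that of the other OPCs in 6 of 6, from 346 against 408 CPM in P8 to 54.4 against 1083 CPM in T233.

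**Figure D2:**
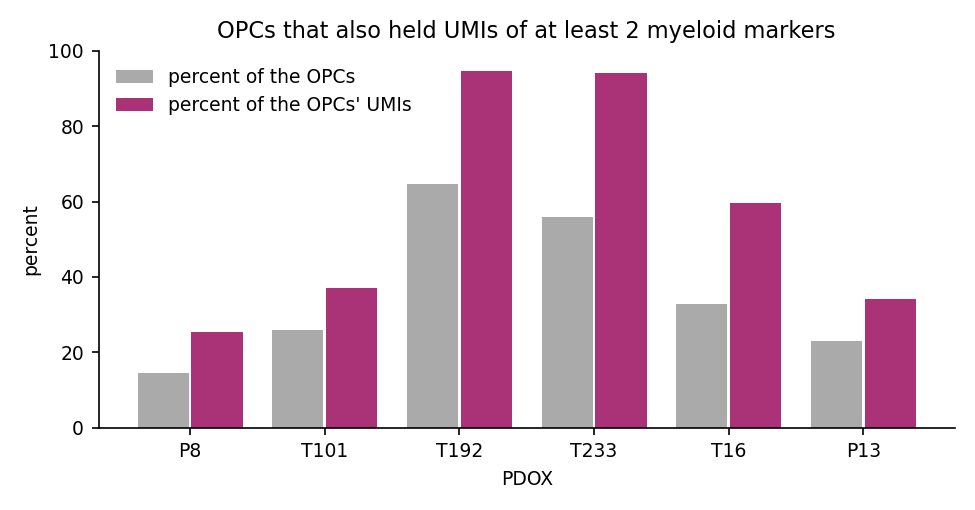
For each PDOX, the percentage of OPCs that held UMIs of at least 2 of 10 myeloid markers (gray) and the percentage of the summed OPC UMIs that these cells carried (purple). In T192 and T233 they are 64.7 and 55.9% of the cells but 94.5 and 94.2% of the UMIs, and in P8 they are 14.6% and 25.3%.

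The part of these cells in the results was not tested. The counts over all genes, and several list counts, are therefore given with all OPCs and also without the 197 cells, a choice made after seeing the data. The split by *Gpr17* and *Pdgfra* is given with all OPCs only. In that second form, T192 and T233 keep 12 and 15 OPCs with 7689 and 10159 UMIs, and P8 keeps 444 with 614982 UMIs.

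To ask how OPCs differ from the nearest other glial class, they were compared with astrocytes of the same PDOX. Astrocytes were cells with at least 3 of 9 astrocyte genes and were between 113 in T233 and 1192 in P13. UMIs were summed per class and PDOX and tested by edgeR's quasi-likelihood test with the PDOX as a block, at FDR ≤ 0.01 and |log2FC| ≥ 1. The 21 genes that define the 2 classes were not tested. The gates set the classes, so the test describes how genes outside them differ between the cells they choose, and the p-values measure the spread between 6 PDOX samples. Of 5441 genes, 248 passed (4.56%), with 102 higher (1.87%) and 146 lower (2.68%) in OPCs, and the median log2FC of all genes was -0.02. Without cells holding myeloid markers in either class, 228 of the 248 still passed and 0 changed sign, while 607 passed in all, with 147 higher (2.7%) and 460 lower (8.45%), and the median of all genes was -0.29.

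Of 10 transcription factors of the oligodendrocyte lineage, 6 were tested, of which 3 passed as higher in OPCs and 0 as lower, with a median log2FC of 1.82. Of these 3, 1 lost its call in some alternatives. *Olig2* (chr16:91225550-91228677) was at 114, 210 and 392 CPM in the lowest, median and highest PDOX and at 0, 9.34 and 56.1 CPM in astrocytes, a log2FC of 3.50 ± 0.40 (SE; FDR = 6.74e-05). *Sox10* (chr15:79154913-79164490) was at 39.9, 107 and 231 CPM against 0, 4.20 and 8.09 CPM, a log2FC of 4.82 ± 0.46 (FDR = 1.95e-05). For both genes, all 6 values in OPCs lay above all 6 in astrocytes, as they did for 71 of the 5441 genes tested (1.3%). P8 was highest and T233 lowest with all OPCs. This order did not hold without the cells with myeloid markers, where *Olig2* was highest in T192 (1170 CPM, 9 UMIs) and T233 (1083 CPM, 11 UMIs) and *Sox10* was highest in T233 (394 CPM, 4 UMIs) with T192 at 0. *Sox6*, *Sox8* and *Sox5* did not pass, with log2FC of 1.03, 1.32 and 0.32.

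**Figure D3:**
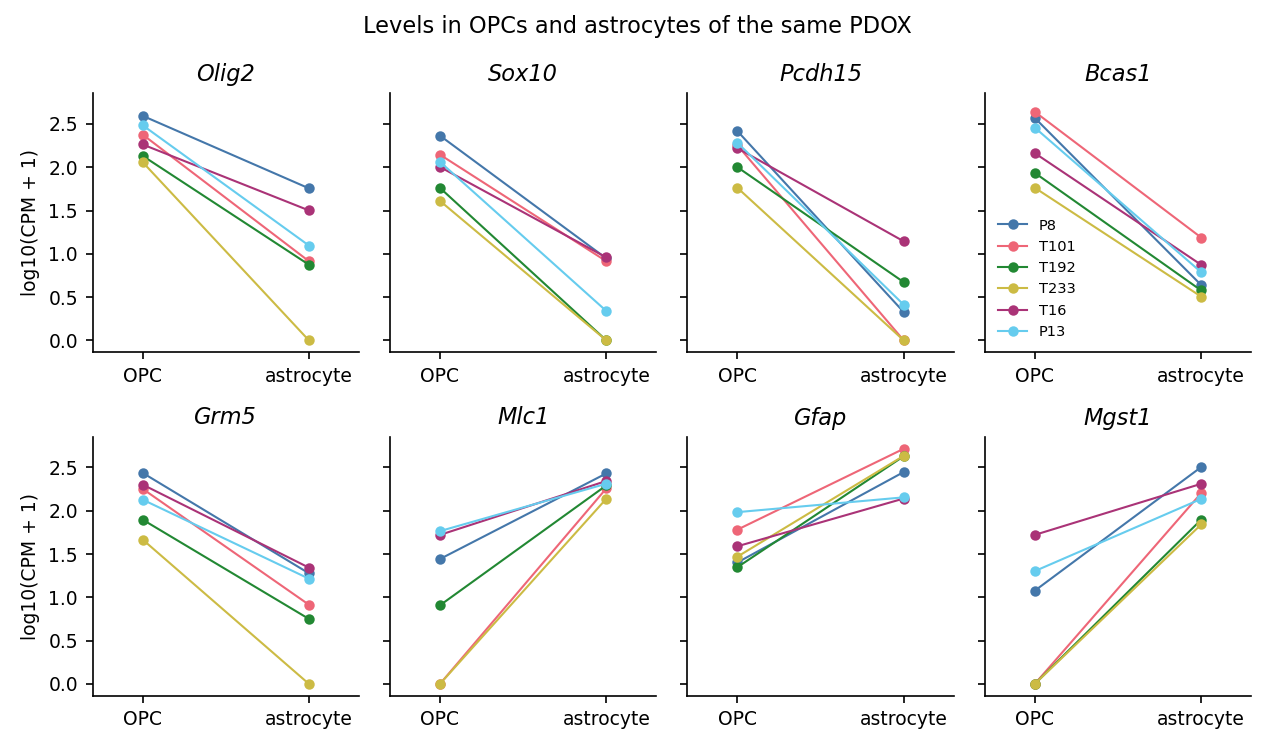
Levels of 8 genes in OPCs (left of each panel) and astrocytes (right) as log10(CPM + 1), with 1 line per PDOX. *Olig2*, *Sox10*, *Pcdh15*, *Bcas1* and *Grm5* lie higher in OPCs in 6 of 6 PDOXs, and *Mlc1*, *Gfap* and *Mgst1* lie lower in 6 of 6.

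The list with the highest median log2FC was that of surface and adhesion molecules. Of 9 tested, 6 passed as higher and 0 as lower, with a median log2FC of 3.55. *Pcdh15*, a protocadherin (chr10:73096277-74649831), was at 57.0, 172 and 261 CPM in OPCs and at 0, 1.35 and 12.9 CPM in astrocytes (log2FC = 5.35 ± 0.48, FDR = 1.23e-05). *Nxph1*, a ligand of neurexins, and *Tnr*, the matrix protein tenascin-R, followed with log2FC of 4.99 and 4.84, and *C1ql1*, a secreted C1q-like protein, with 4.61. *Matn4* (matrilin) and *Cntn1* (contactin) were higher by 3.55 and 2.86. In each of these 6 genes, the ranges of the 2 classes did not overlap. *Ptprz1*, a receptor phosphatase of both glial types, was at 410, 1988 and 2717 CPM in OPCs and at 414, 1226 and 2519 CPM in astrocytes (log2FC = 0.10, FDR = 0.868). This direction turned without P13, without likely doublets, without the filter on low counts and without cells holding myeloid markers.

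The 10 genes with the largest higher values were *3110035E14Rik* (5.71), *Pcdh15* (5.35), *Bcas1* (5.23), *Nxph1* (4.99), *Tnr* (4.84), *Sox10* (4.82), *Tmem179* (4.73), *C1ql1* (4.61), *Gng3* (4.55) and *3632451O06Rik* (4.399), given as log2FC. Each was higher in 6 of 6 PDOXs without overlap and passed under all alternatives in which it was tested. *3110035E14Rik* reached 346 CPM in the median PDOX against 5.64 CPM in astrocytes, and *Gng3*, a G protein subunit known from neurons, 251 against 5.88 CPM.

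Glutamate receptors and ion channels were higher in OPCs in 5 of 8 genes tested and lower in 0, with a median log2FC of 2.50. *Grm5*, the metabotropic receptor mGluR5, was at 45.6, 156 and 273 CPM in OPCs and at 0, 11.3 and 21.0 CPM in astrocytes (log2FC = 3.51 ± 0.32, FDR = 1.23e-05), with no overlap. Of the AMPA receptor subunits, *Gria3* and *Gria4* passed with log2FC of 3.05 and 2.59. *Gria2*, which makes the channel impermeable to calcium, did not pass and was abundant in both classes (median of 762 CPM in OPCs and 584 CPM in astrocytes, log2FC = 0.39). *Gria1* had a log2FC of -1.63 with an FDR of 0.0129. The sodium channel *Scn3a* and the potassium channel partner *Kcnip3* passed with 3.03 and 2.398. Of these 5 genes, 4 lost their call in 1 or more alternatives, *Scn3a* in 6, *Gria3* in 2, and *Gria4* and *Kcnip3* in 1 each.

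Transcripts of the later stages of the lineage were few. Among 5 committed precursor genes tested, 1 passed, *Bcas1*, a gene of newly forming oligodendrocytes (chr2:170343973-170427911). It was at 57.0, 215 and 436 CPM in OPCs and at 2.21, 4.25 and 14.4 CPM in astrocytes (log2FC = 5.23 ± 0.33, FDR = 1.31e-06). *Fyn* and *Sirt2* did not pass, with log2FC of 0.37 and 0.49. Of 11 myelin genes, 2 had enough UMIs for a test and 0 passed, and *Cnp*, an enzyme of the myelin sheath, had a log2FC of -0.43. *Mbp* was at 7.10 to 34.0 CPM. *Enpp6*, a gene of committed precursors, had 0 UMIs in the 3 files that list it, and *Mobp* and *Mal* had 1 UMI each in T192, with 1 more of *Mobp* in T16 and of *Mal* in P8.

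**Figure D4:**
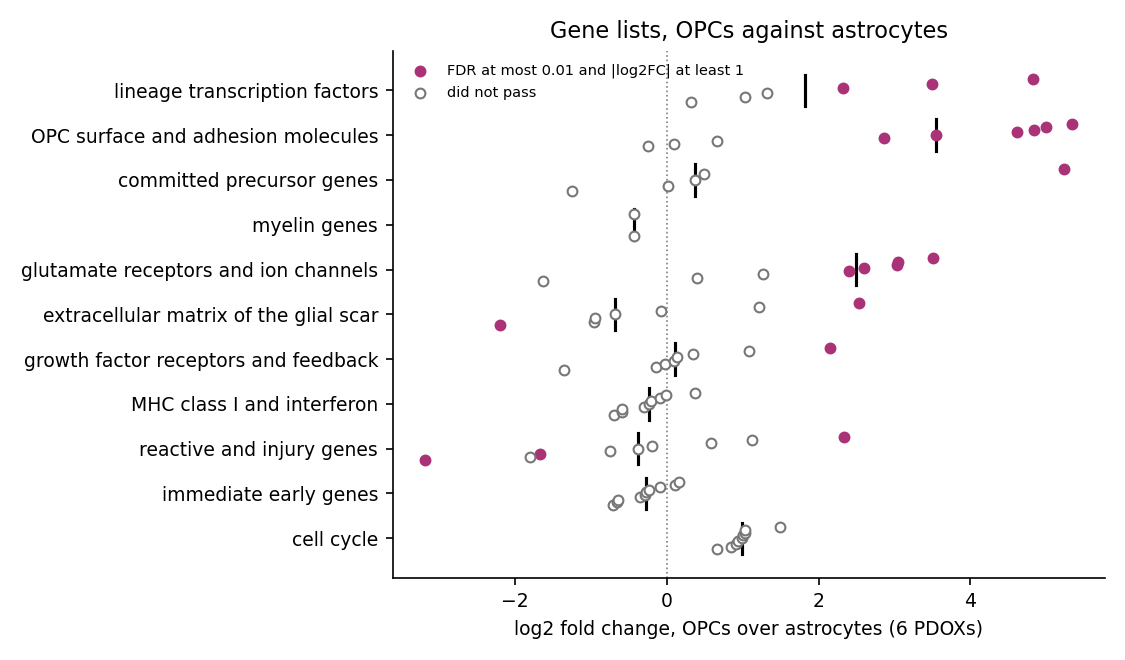
Log2 fold change of each tested gene in OPCs over astrocytes, by gene list (edgeR, 6 PDOXs). Filled points passed FDR ≤ 0.01 and |log2FC| ≥ 1, open points did not, and black bars are list medians. Lineage factors, surface molecules and glutamate receptors lie to the right with medians of 1.82, 3.55 and 2.50, and MHC class I and immediate early genes lie near 0 with no gene past the threshold.

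Genes of the glial scar matrix did not move together. Of 7 tested, 1 was higher, 1 was lower and the median log2FC was -0.68. *Sulf2*, a sulfatase that edits heparan sulfate, was at 163, 234 and 675 CPM in OPCs and at 7.22, 45.0 and 71.3 CPM in astrocytes (log2FC = 2.53 ± 0.35, FDR = 0.000322). *Hapln1*, a link protein of hyaluronan, was lower by a log2FC of -2.20 and lost its call in 1 alternative. *Bcan* (brevican) and *Ptn* (pleiotrophin) did not pass and had values of -0.96 and -0.68. *Ptn* stood at 689 to 3293 CPM in OPCs and 1004 to 7667 CPM in astrocytes.

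Among growth factor receptors and feedback genes, 1 of 8 passed, *Ccnd1*, which encodes the cyclin D1 that mitogens induce. It was at 194, 551 and 1398 CPM in OPCs and at 36.1, 104 and 221 CPM in astrocytes (log2FC = 2.16 ± 0.38, FDR = 0.00184) and lost its call in 3 alternatives. The median of this list was 0.11. The OPC value of T233 (194 CPM) fell below the astrocyte value of T192 (221 CPM).

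Of 9 reactive and injury genes, 1 was higher and 2 were lower, with a median of -0.38. *Gap43*, a growth-associated protein, was at 103, 345 and 650 CPM in OPCs and at 6.62, 61.9 and 238 CPM in astrocytes (log2FC = 2.34 ± 0.43, FDR = 0.00239) and lost its call in 3 alternatives. *Gfap* and *Vim*, intermediate filaments of reactive astrocytes, were lower by log2FC of -3.19 and -1.68, and *Vim* lost its call in 6 alternatives. In 9 genes of MHC class I and interferon response, 10 immediate early genes and 9 cell cycle genes, 0 passed. Their medians were -0.23, -0.28 and 0.99, with 1109 of all 5441 genes at an unadjusted p under 0.05. Without cells holding myeloid markers, the counts of lineage factors, surface molecules and immediate early and MHC class I genes were the same as with all cells. There, 2.7% of all genes tested were higher and 8.45% lower, and 3 of 9 cell cycle genes were higher. Of 9 reactive genes, 1 was higher and 5 were lower, and of 7 matrix genes, 2 were higher and 3 lower. In each of the glutamate receptor, committed precursor and growth factor lists, 1 more gene was lower.

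The genes with the largest lower values in OPCs included several known from astrocytes. *Mgst1*, a glutathione transferase, was at 0, 5.47 and 51.7 CPM in OPCs and at 68.4, 147 and 319 CPM in astrocytes (log2FC = -3.88 ± 0.48, FDR = 0.000139). *Slc39a12*, a zinc transporter, and *Lrig1* had log2FC of -3.77 and -3.67. *Mlc1*, a membrane protein of astrocyte endfeet, was at 0 to 57.3 CPM against 137 to 269 CPM (-3.35). *Lix1*, *Fam107a*, *Itih3*, *Id4*, *Gfap* and *Fxyd1* completed the 10 largest, with log2FC between -3.43 and -3.15. Each was lower in 6 of 6 PDOXs, and the ranges overlapped for *Slc39a12*, *Lrig1*, *Fam107a*, *Itih3* and *Id4*. Over all genes tested, the 6 values in OPCs lay wholly below those in astrocytes for 0.515%. Of these 10 genes, 3 kept their call under all alternatives and 7 lost it in 1 or more.

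A second comparison set OPCs against all cells of the same PDOX with none of the 9 genes, which are mostly of other lineages. Of 7631 genes tested the same way, 342 passed (4.48%), with 175 higher (2.29%) and 167 lower (2.19%), and the median log2FC of all genes was -0.10. Without OPCs holding myeloid markers, 340 of the 342 still passed and 0 changed sign. The total was then 1670, with 378 higher (4.95%) and 1292 lower (16.9%), at a median of all genes of -0.33. Here the other cells keep their myeloid transcripts.

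Of 7 lineage transcription factors, 4 were higher (*Olig2* 4.61, *Sox10* 5.55, *Sox8* 2.72 and *Sox6* 2.42 as log2FC) and 0 lower, with a list median of 2.42. Of 11 surface and adhesion molecules, 9 were higher and 0 lower, with a median of 4.23, among them *Opcml*, an opioid-binding adhesion molecule (4.23), *Emid1* (4.20) and *Alcam* (1.47). The largest values were those of *Pdzrn4* (6.25), *Tmem179* (6.24), *C1ql1* (5.85), *Gng3* (5.70) and *Pcdh15* (5.67). *Pdzrn4* was at 17.1, 76.3 and 165 CPM in OPCs and at 0, 0.732 and 2.37 CPM in the other cells, with no overlap. OPCs lay wholly above the other cells in 1.65% and wholly below them in 0.97% of the genes tested. *Sox8* lost its call in 2 alternatives.

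Of 8 glutamate receptors and ion channels, 6 were higher and 0 lower (median 2.78), and *Gria2* now passed with a log2FC of 1.53. Of these 6, 3 lost their call in 1 alternative each, *Gria2*, *Gria3* and *Kcnd2*. *Bcas1* was again the one committed precursor gene of 5 that passed (5.56). In the growth factor list, 3 of 9 were higher, which were *Etv4* and *Spry2*, induced by receptor tyrosine kinase signaling (2.21 and 1.34), and *Ccnd1* (1.67). These calls were lost in 2, 7 and 8 alternatives. In the matrix list, 2 of 6 were higher, *Sulf2* (2.60) and the syndecan *Sdc3* (1.3003), which lost its call in 8 alternatives.

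*Serpina3n* and *C4b*, which encode a secreted protease inhibitor and a complement component known from injured glia, were higher in OPCs than in these other cells. *Serpina3n* was at 19.1, 107 and 502 CPM in OPCs and at 5.29, 10.01 and 26.3 CPM in the other cells (log2FC = 3.07 ± 0.37, FDR = 0.000143). With all OPCs it was highest in P8 and lowest in P13, where the value in OPCs (19.1 CPM) lay below the highest value of the other cells. Without OPCs holding myeloid markers, *Serpina3n* was at 650 CPM in T192 (5 UMIs) and 553 CPM in P8. *C4b* was at 68.4, 112 and 187 CPM against 19.6, 27.3 and 71.8 CPM (1.76 ± 0.32, FDR = 0.003). Among the 11 reactive genes tested, these 2 were higher, *Vim* was lower (-1.64) and the median was -0.77. *C4b* lost its call in 4 alternatives and *Vim* in 6. Against astrocytes, neither passed (*Serpina3n* 1.12, *C4b* 0.58).

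Of 13 genes of MHC class I and interferon response, 1 was lower (*Ifitm3*, -1.87 ± 0.29, FDR = 0.001) and the median was -0.92. *Ifitm3* lost its call in 2 alternatives. *B2m*, *H2-D1* and *H2-K1* had values of -1.02, -0.87 and -0.92 with FDR between 0.0772 and 0.0911. All 6 endothelial markers tested were lower, with a median of -4.57, and 2 of them lost their call in 1 or more alternatives. Against astrocytes, only 2 of these 6 had enough UMIs for a test. Genes near 0 in OPCs can pass the count filter through the other cells, and then can only come out lower. *Pglyrp1*, *Tek*, *Emcn* and *Lef1*, which are on in endothelial cells, and *Mal* were the genes with the largest negative values. Only 1, 1, 1, 2 and 2 UMIs of them fell in OPCs, while each reached at least 31.1 CPM in the other cells of every PDOX. They passed the count filter through the other cells, so their direction was fixed in advance. The 9 myeloid markers outside the gates did not pass in either comparison with all OPCs (medians of -0.66 against astrocytes and -0.98 against the other cells). Without OPCs holding myeloid markers, which the other cells kept, 9 of 13 MHC class I and interferon genes and 9 of 10 immediate early genes were lower than in the other cells. Of 11 reactive genes, 6 were lower and 3 higher, and 6 of 7 lineage factors and 11 of 11 surface molecules were higher. In that fit, 16.9% of all genes tested were lower and 4.95% higher.

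OPCs were then split by *Gpr17* and *Pdgfra*. Of 850 OPCs, 549 held *Pdgfra* without *Gpr17*, 36 held *Gpr17* without *Pdgfra*, 74 held both and 191 neither. The share with *Gpr17* was 11.9% in P8 (95% exact binomial interval 9.26 to 15.0%), 11.8% in T16, 14.0% in T101, 17.6% in T192, 19.2% in P13 and 23.5% in T233 (10.7 to 41.2%), and these intervals overlapped. P8 was the only PDOX with at least 10 cells of *Gpr17* alone, so the classes were not tested over samples and only values are given, for all cells with *Gpr17* against those with *Pdgfra* alone.

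In P8, the 62 OPCs with *Gpr17* held 570 CPM of *Bcas1* (95% exact Poisson interval 453 to 707 CPM), and the 379 with *Pdgfra* alone held 343 CPM (297 to 393 CPM). *Mbp*, which encodes myelin basic protein, was at 90.3 CPM (48.1 to 154 CPM) against 18.5 CPM (9.22 to 33.1 CPM), values that rest on 13 UMIs in 6 cells and 11 UMIs in 10 cells. These intervals cover counting error within 1 sample only. In the other 5 PDOXs together, *Bcas1* was at 225 CPM (153 to 320 CPM) in 48 cells with *Gpr17* and at 133 CPM (99.0 to 174 CPM) in 170 cells with *Pdgfra* alone. Cells with *Gpr17* had a median of 1626.5 UMIs in P8 and 1034 UMIs in the others, against 1318 and 1104.5 UMIs in cells with *Pdgfra* alone.

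Cycling cells were counted as those with UMIs of at least 2 of 21 cell cycle genes after thinning to 500 UMIs. They were 4.42% of OPCs in P8, 12.8% in T101, 11.1% in T192, 0 of 28 cells in T233, 11.9% in T16 and 11.5% in P13. In astrocytes the shares were 0.7105%, 6.59%, 4.02%, 1.28%, 5% and 5.55% in the same order. The mean was 8.63% ± 5.19 (SD, n = 6) in OPCs and 3.86% ± 2.38 in astrocytes, and OPCs were higher in 5 of 6 PDOXs. The difference of 4.77 percentage points did not pass an exact two-sided sign-flip permutation test (p = 0.0625), where the smallest p that 6 pairs allow is 0.03125. Cells with none of the 9 genes were cycling at 2.12 to 10.7%.

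Without thinning, 9.62 to 30.8% of OPCs and 1.97 to 17.5% of astrocytes were cycling, a difference of 13.2 points in the same direction in 6 of 6 PDOXs (exact permutation p = 0.03125). It was 13.6 points when cells were thinned to 1000 UMIs (exact permutation p = 0.03125) and 5.34 points when cells with myeloid markers were left out (exact permutation p = 0.125 over 5 PDOXs). That is the smallest p those 5 pairs allow, since T233 had 0 cycling cells in both classes. Counting cells with at least 1 gene, the exact permutation p was 0.0625 without thinning and 0.09375 at 1000 UMIs, with OPCs higher in 5 of 6 PDOXs. With at least 3 genes it was 0.03125 in both forms. Deeper cells pass such counts more easily, and at 1000 UMIs 5 of 14 OPCs of T233 were cycling, against 0 of 28 at 500 UMIs. By summed counts, *Mki67*, a gene of proliferating cells, was at 92.3, 148 and 534 CPM in OPCs and at 33.1, 59.3 and 252 CPM in astrocytes (log2FC = 0.94, FDR = 0.0428). *Top2a* and *Cdca8* had log2FC of 0.85 and 1.49 with FDR of 0.054 and 0.0113. All 9 cell cycle genes tested had values above 0, of 0.66 to 1.49, and 0 passed with all cells.

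Across the 6 PDOXs, 709 genes outside the rule reached a mean of 200 CPM in OPCs, and the median ratio of the highest to the lowest PDOX was 3.03, with levels under that of 3 UMIs raised to it. The labels give no groups among these tumors, so this variation is described without a test. The 6 genes with the largest such ratios were *Mgp* (230), *Cxcl13* (100), *Ttr* (78.9), *Cd74* (71.7), *Igfbp7* (63.7) and *H2-Aa* (63.3). *Cxcl13*, a chemokine, was at 4272 CPM in T192 and 3948 CPM in T233 and at 42.5 CPM in P8. *Cd74*, the MHC class II invariant chain, was at 2718 CPM in T233 and 2162 CPM in T101 and at 0 in P13.

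Several of these levels moved with the myeloid markers. Without OPCs holding at least 2 of them, *Cxcl13* was at 0 to 130 CPM and *Cd74* at 0 to 157 CPM, and *H2-Aa*, a chain of MHC class II, went from 1745 to 378 CPM in T101, its highest PDOX. *Ttr*, the transthyretin of the choroid plexus, was at 11203 CPM in T16 and 7566 CPM in T233 with all OPCs and at 1093 and 591 CPM without the cells with myeloid markers, and in cells with none of the 9 genes it was at 2592 to 12831 CPM. *Mgp* and *Igfbp7*, known from vessel walls, were highest in P13 (1680 and 1355 CPM), the PDOX whose OPCs also held mural markers, and there they were at 1074 and 1103 CPM without the cells with myeloid markers. Those P13 values rest on 37 UMIs of *Mgp* in 2 of 20 cells and 38 UMIs of *Igfbp7* in 4 of 20 cells.

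Of the immediate early genes, *Atf3*, a stress-induced factor, was at 568 and 661 CPM in OPCs of T192 and T233 and at 15.8 CPM in P8. Without cells with myeloid markers, *Atf3* was at 0 to 130 CPM in the 6 PDOXs. *Fos* ranged from 198 CPM in P8 to 507 CPM in T233 with all OPCs, and from 0 to 260 CPM without those cells, where P8 and T101 were at 208 and 220.3 CPM.

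In OPCs of T101, *H2-K1* and *B2m* of MHC class I stayed high without the cells with myeloid markers. *H2-K1* was at 2182 CPM in OPCs of T101, with a UMI in 74.0% of cells, and at 1951 CPM without the cells with myeloid markers. In T192, the corresponding levels were 2001 and 520 CPM (the latter from 4 UMIs), and in T233 they were 929 and 98.4 CPM (1 UMI). P8, T16 and P13 lay between 261 and 363 CPM with all OPCs. *B2m*, the light chain of MHC class I, was at 5554 CPM in T101 with all OPCs and 4972 CPM without those cells, while the other 5 PDOXs had 394 to 1691 CPM without them. With all OPCs, *B2m* was highest in T192, at 7054 CPM.

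Of the 13 genes of the MHC class I and interferon list, 9 were highest in T101 with all OPCs and 9 without the cells with myeloid markers. Of the 709 genes described above, T101 was highest for 88 and 107 in the same order. Those sets of 9 differ, since without those cells *B2m* joined and *Tap1* was highest in T233. There, T101 held 1 UMI of *Irf7*, 5 of *Psmb9*, 6 of *Ifit3* and 8 of *Isg15*. *Ifitm3* was highest in P13 both ways, at 522 CPM against 220 CPM in T101 without those cells, and *Ifit1* and *Bst2* were highest in T101 neither way. *Psmb8*, a subunit of the immunoproteasome, was at 575 CPM in T101 and at 38.2 to 291 CPM in the other 5 with all OPCs, and at 503 CPM in T101 and 0 to 68.3 CPM elsewhere without the cells with myeloid markers. *Isg15*, a ubiquitin-like protein that interferon induces, was at 278 CPM against 5.70 to 99.4 CPM with all OPCs, and at 252 CPM against 0 to 25.6 CPM without those cells. In T101, 37 OPCs remained without the cells with myeloid markers. In T192 and T233, 1 UMI is then 130 and 98.4 CPM, so a value of 0 there says little about a gene at the level of *Isg15*.

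**Figure D5:**
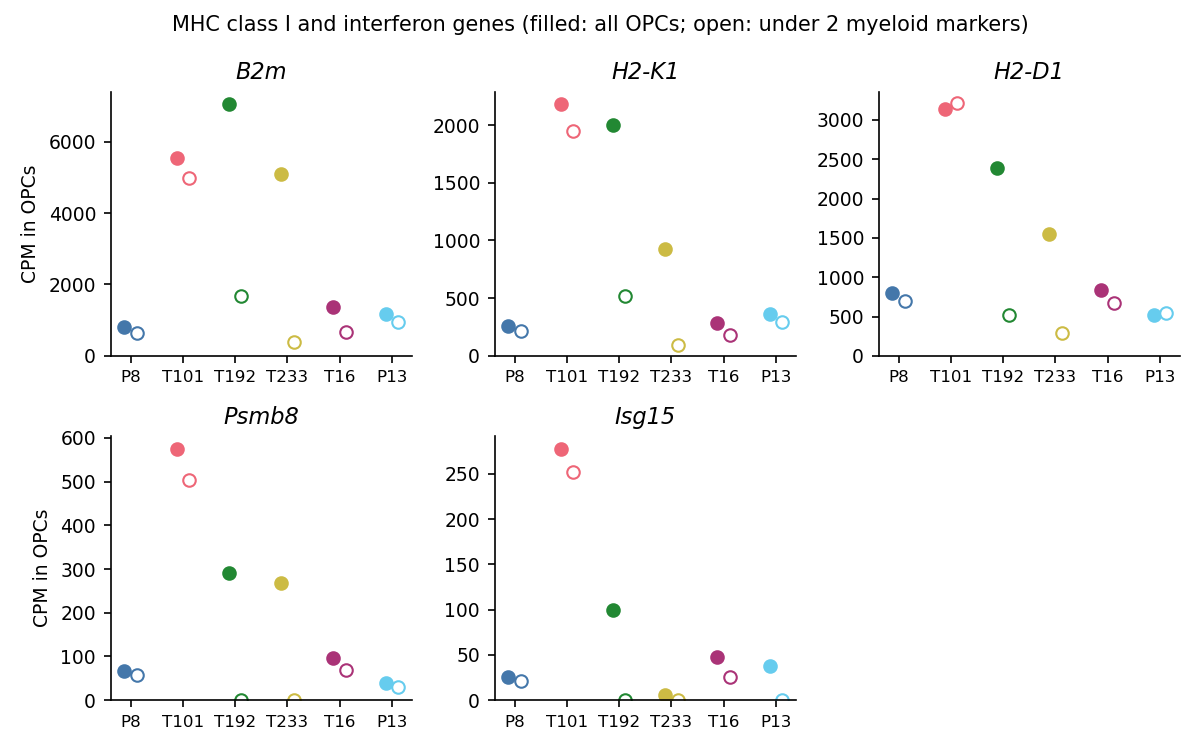
Levels of 5 of the 13 MHC class I and interferon response genes in OPCs of each PDOX in CPM, with all OPCs (filled) and without OPCs holding at least 2 myeloid markers (open). *Tap1*, *Ifit1*, *Bst2* and *Ifitm3*, which were not highest in T101 without those OPCs, are not shown. T101 is highest in all 5 panels among the open points, while T192 and T233 drop in *B2m* and *H2-K1*, where *H2-K1* goes from 2001 to 520 CPM in T192.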

How the data were processed

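The authors aligned the Drop-seq libraries to a human and a mouse (GRCm38) genome (bcl2fastq 2.0 and STAR, per the labels) and deposited raw UMI counts per gene and cell barcode for the mouse cells of 9 samples. The members and gene lists were chosen with earlier results of these data known.

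A symbol not listed in a file was taken as missing. Cells with 200 or more genes and no more than 30% mitochondrial UMIs were kept. UMIs were summed per class and PDOX and compared in the 6 PDOXs with 10 or more OPCs, over 13738 symbols that all 6 files list. The test was edgeR 4.0.16 (R 4.3.3, limma 3.58.1; TMM, filterByExpr, quasi-likelihood, Benjamini-Hochberg FDR). The PDOX was a block because both classes came from the same sample. P-values measure the spread between these samples, whose number of mice is not given in the sources used here. The scripts were tested on simulated data. Alternatives were DESeq2 1.42.0, RLE size factors, no count filter, no block, leaving out each PDOX, other cell rules, depth limits and dropping likely doublets, the top 5% by scrublet score in each sample (scanpy 1.11.5), since doublets were otherwise kept. Added after seeing the data were T192 and T233 summed, and the removal of cells with UMIs of at least 2 of 10 myeloid markers, in both classes against astrocytes and in OPCs only against other cells. Thinning used seed 1 in Python 3.11.15 (numpy 2.4.6).

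Named genes were the 13 of the rule with *Olig2* and *Sox10*, the 10 (against astrocytes) or 5 (against other cells) largest called changes in each direction with at least 50 CPM in the higher class and 1 direction in every PDOX, list members with the highest level or a call, and the 6 most variable genes of at least 200 CPM across PDOXs. *Lhfpl3* and the T101 comparison were described after their values were seen. The planned test of *Gpr17* against *Pdgfra* cells was replaced by values, since P8 alone had enough cells. Some members of the gene lists are counted but not reported by name here.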

Additional observations from a re-analysis of the deposited data

Results flagged for a closer look

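In groups of 6 or 7 PDOXs, a value was singled out when its gap to the nearest other value took up an unusually large part of the range (Dixon's 95% critical value). This held for 5 of 32 measures. Chance gives about 1 in 20 for measures not picked by their values, which does not apply to the genes here, since they were named for large changes or for large differences between PDOXs. The share of OPCs in P8 (21.3%) stood above that of T16 (8.75%) and the other 5 untreated PDOXs. In OPCs of P8, *Tmem179* was at 191 CPM, with the next PDOX at 79.3 CPM. Without OPCs holding myeloid markers, *Tmem179* was at 215 CPM in P8 and 130 CPM (1 UMI) in T192, a gap of 0.456 of the range that no longer passed the critical value. *C1ql1* was at 259 CPM in P8, with the next at 99.2 CPM. Without OPCs holding myeloid markers, *C1ql1* was at 591 CPM in T233 (6 UMIs) and 390 CPM in T192 (3 UMIs) against 267 CPM in P8, and no PDOX passed the critical value. In OPCs of P13, *Mgp* was at 1680 CPM and *Igfbp7* at 1355 CPM, against at most 218 and 159 CPM elsewhere, and 8 of the 26 OPCs of P13 held a UMI of *Rgs5*, a pericyte gene. The part of those cells in the P13 values was not tested.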

How the results depend on the processing

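No called gene changed sign against the reported comparisons under any alternative. Counts of genes higher and lower in OPCs, which were 102 and 146 against astrocytes and 175 and 167 against other cells, became 356 and 562, and 431 and 474, without the count filter. They were 209 and 433, and 380 and 1079, for OPCs with no UMI of the 4 excluded genes, where 26.0% of calls against other cells were higher. With cells of at least 1000 UMIs they were 19 and 27, and 39 and 32. Without OPCs holding fibroblast, mural or neuroblast markers, 256 genes were higher and 264 lower than in other cells. Without cells holding myeloid markers, 147 were higher and 460 lower than in astrocytes, and 378 and 1292 than in other cells. DESeq2 called 303 and 472 genes in all. With T192 and T233, models of 1 patient, summed to 1 sample, 120 were higher and 139 lower than in astrocytes, and 246 and 165 (59.9% higher) than in other cells, and 3 of 35 and 3 of 45 named calls were lost. The named calls lost were 17 of 35 and 11 of 45 without the block, 8 of 24 and 8 of 27 tested at 1000 UMIs, and up to 4 and 9 on leaving out 1 PDOX, most without T16.

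Without the replicate block, the counts were 37 and 12 against astrocytes, with 75.5% higher, and 107 and 83 against other cells. Leaving out 1 PDOX gave 39 to 120 higher and 87 to 157 lower against astrocytes, and 112 to 253 and 98 to 180 against other cells. The lowest counts came without P8 (39 and 90 against astrocytes) and without T16 (46 and 87, and 112 and 98). The value of Ptprz1, OPC against astrocytes (log2FC), turned to -0.0929 without the count filter, -0.0213 without likely doublets, -0.59 without cells holding myeloid markers and -0.0390 without P13, with 0.20 as the highest of the leave-one-out values.

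The cycling difference was 14.2 points with at least 1 cell cycle gene, 13.2 without thinning and 13.6 at 1000 UMIs (exact permutation p = 0.03125 in each). It was 4.24 with at least 3 genes (exact permutation p = 0.0625) and 4.30 to 5.98 without each PDOX. Of 1570 recomputed values of 96 results, 1433 kept direction and side of the threshold, 93 lost it, 40 gained it and 4 turned. The cause was not tested in any of these. The alternatives for *Gpr17* against *Pdgfra* cells were not run, as that test was not made. Depth limits the class in T101 and P13, at 50417 and 52394 UMIs, and more so in T192 and T233 without cells holding myeloid markers, at 7689 and 10159 UMIs.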

Other observations

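Among genes with a mean of at least 200 CPM, 64 were above both astrocytes and cells with none of the 9 genes in 6 of 6 PDOXs, a set chosen after seeing the data. Of these, 52 were lowest in T192 or T233, the models of 1 patient, and 30 were lowest there without OPCs holding myeloid markers. Over all 709 genes at that level, 350 were lowest in T192 or T233, and 409 without those cells. Of the 64 genes, 39 were highest in P8, or 11 without OPCs holding myeloid markers, against 167 and 99 of the 709. Their median ratio of the highest to the lowest PDOX was 3.397, with levels under that of 3 UMIs raised to it.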
